A study of Mus musculus with 16 samples.

Results

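Voltage-gated calcium channel subunits were followed across 4 RNA-seq libraries of cultured mouse cortical neurons. The 10 genes described are Cacna1a, Cacna1b, Cacna1c, Cacna1d, Cacna1e, Cacna1g, Cacna1h, Cacna1i, Cacna2d1 and Cacna2d3, chosen by gene symbol from the 22440 genes of each deposited table, and all 10 were found. The neurons were primary cultures from the cortex of Swiss-Webster mouse embryos at embryonic day 16. The libraries came from a culture given etoposide at 5 µM, its control (the etoposide control), a culture given NMDA, and a separately numbered control (the NMDA control). Etoposide holds type II topoisomerases, enzymes that cut and rejoin both DNA strands, at the cut. NMDA is an agonist of the glutamate receptor named after it. For most experiments the protocol has 50 µM NMDA for 10 min and then 10 min of recovery. The length of the etoposide treatment is not stated, and no treatment is named for the controls. The series has 16 samples, and its 12 chromatin samples were not analysed here.

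Each voltage-gated calcium channel is built around a pore-forming α1 subunit, which opens when the membrane is depolarised and sets the channel's type. P/Q-type (Cacna1a), N-type (Cacna1b), L-type (Cacna1c and Cacna1d) and R-type (Cacna1e) channels need strong depolarisation, whereas T-type channels (Cacna1g, Cacna1h and Cacna1i) open close to the resting potential. The α2δ subunits (here Cacna2d1 and Cacna2d3) lie outside the membrane and, with cytosolic β subunits, carry the high-threshold channels to the cell surface. In cortical neurons P/Q- and N-type channels trigger transmitter release, and L-type channels pass activity signals to the nucleus.

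Levels are given in FPKM, fragments per kilobase of transcript scaled to the library's fragment total. Each group had 1 library, so no difference has a replicate check, no p-value is given, and "higher" and "lower" compare single libraries. From the smallest steps between low values, the fragment totals were near 11.8 M with etoposide, 14 M in its control, 17.7 M with NMDA and 18.8 M in its control, and FPKM of at least 1 was listed for 9836 to 12886 genes. Intervals are exact 95% intervals on the ratio, computed from fragment numbers that are themselves approximate, and they hold counting error alone. The FPKM scales of the libraries differed. Over genes at FPKM of at least 1 in both libraries, the median FPKM ratio was 0.762 for etoposide over its control, 1.02 for NMDA over its control and 2.95 for the NMDA control over the etoposide control. Neuronal markers were expressed in every library. Tubb3, a neuronal tubulin, was at 101 FPKM with etoposide against 209 in its control, and at 653 with NMDA against 606 in its control.

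All 10 genes were expressed. The α2δ gene Cacna2d1 (mm9 chromosome 5, 15440509 to 15880329) had the highest FPKM of the 10 in every library, at 6.17 with etoposide against 23.0 in its control, and at 48.5 with NMDA against 38.3 in its control. Cacna1b (chromosome 2, 24461895 to 24618672) was the most abundant α1 gene in every library, at 5.08 FPKM with etoposide against 11.8 in its control, and 26.4 with NMDA against 23.8 in its control. The L-type gene Cacna1d (chromosome 14, 30822186 to 31340242) was the lowest of the 10 throughout, at 0.976 with etoposide against 2.03 FPKM in its control, and 4.95 with NMDA against 5.16 in its control. Between these ends the order differed by library. In the etoposide library Cacna1h ranked 3, its counting interval overlapping that of Cacna1b. In the etoposide control Cacna1h ranked 6, and its interval overlapped those of its neighbours Cacna1e and Cacna1c. In the etoposide library the genes ranked 5 to 10, which are Cacna1e, Cacna2d3, Cacna1c, Cacna1g, Cacna1i and Cacna1d, each had an interval overlapping that of the next. In the NMDA library the intervals of Cacna1a, Cacna2d3 and Cacna1e overlapped in turn, and all other neighbours were separated. In the NMDA control the neighbours whose intervals overlapped were Cacna1a and Cacna2d3, Cacna1c and Cacna1e, and Cacna1h and Cacna1i.

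**Figure D1:**
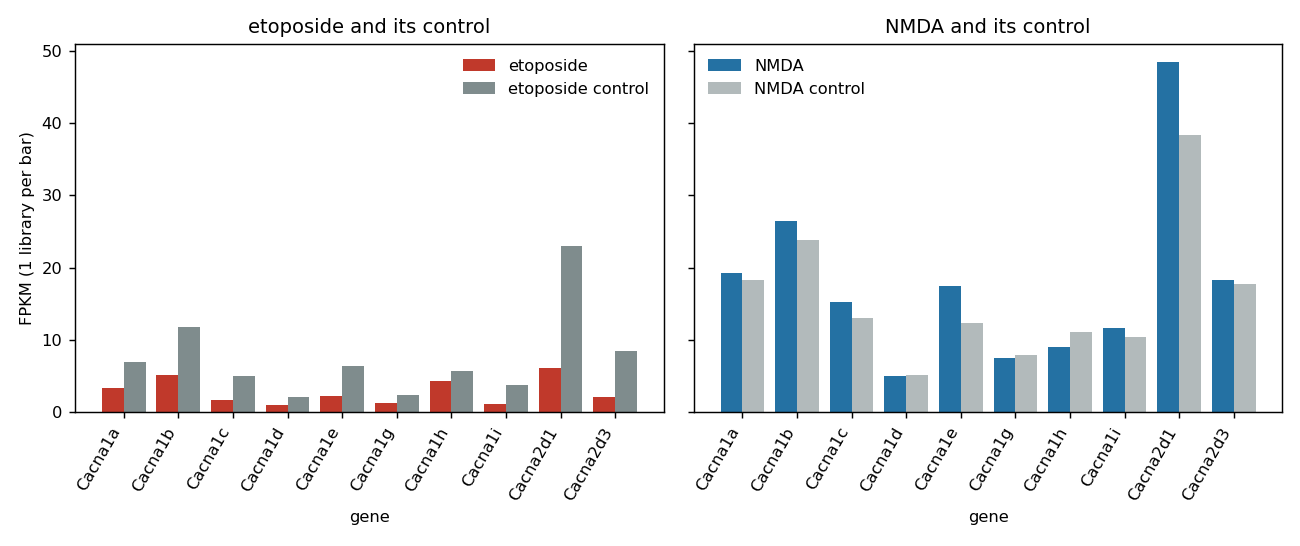
FPKM of the 10 calcium channel genes in each library, with 1 library per bar and no error bar. Each etoposide bar is lower than its control bar, while NMDA bars stand near their control bars, with Cacna1e at 17.4 against 12.3 and Cacna1h at 8.96 against 11.1.

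The etoposide comparison asks what trapped topoisomerase does to transcripts. All 10 genes were lower with etoposide than in its control, on the deposited scale and after scaling to the median of all genes, but Cacna1h was higher with etoposide when the NMDA control took the place of the own control under median scaling (log2 fold 0.57). Of all genes compared 76.7% were lower with etoposide, and of those over 100 kb 94.5%. All 10 were also below the median of all genes, as are 50.0% of genes by construction, Cacna1h by only 0.02 on the log2 scale. That number was 9 with a pseudocount of 0.1 or median scaling, and 8 against the NMDA control as deposited. On the log2(FPKM + 1) scale, used for genes at FPKM of at least 1 in either library, which all 10 passed, 6 of the 10 were at least 2-fold lower and none 2-fold higher. They were Cacna1b, Cacna1c, Cacna1e, Cacna1i, Cacna2d1 and Cacna2d3, and the share of all 10681 genes that was at least 2-fold lower was 7.36%, with 0.477% at least 2-fold higher. The pseudocount of 1 understates the change of low genes. The median log2 fold of the 10 was -1.11, against -0.32 for all genes compared. The number at least 2-fold lower was 2 after median scaling (Cacna2d1 and Cacna2d3, with 2.26% of all genes) and 1 against the NMDA control with median scaling.

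Of the 10 genes Cacna2d3 and Cacna2d1 had the lowest ratios to the control. The intervals of the T-type gene Cacna1i and the L-type gene Cacna1c overlap both, however, and that of Cacna1e overlaps that of Cacna2d3. Against the NMDA control with median scaling the order differed, with Cacna1i at a log2 fold of -1.05, Cacna2d3 at -0.97, Cacna1c at -0.85 and Cacna2d1 at -0.62. Cacna2d3 (chromosome 14, 29718129 to 30535050), an α2δ subunit of brain, was at 2.15 FPKM with etoposide against 8.43 in its control, a ratio of 0.256 (interval 0.202 to 0.320, from about 94 and 435 fragments). Cacna2d1, the α2δ subunit known as a target of gabapentin, had a ratio of 0.269 (0.244 to 0.295). At a log2 fold of -1.74 it stood at percentile 0.4 of all genes compared, and Cacna2d3, at -1.58, at percentile 0.7. Both intervals lie below the median FPKM ratio of all genes, 0.762.

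Among the high-threshold α1 genes, the R- and L-type genes Cacna1e and Cacna1c had lower ratios to the own control than the presynaptic channel genes Cacna1a and Cacna1b. For Cacna1e this order depended on the control. Against the NMDA control with median scaling Cacna1e was at a log2 fold of -0.42 and Cacna1a at -0.43. Under that setting Cacna1c was at -0.85 and Cacna1b at -0.22. Cacna1c (chromosome 6, 118542314 to 119171632), the main neuronal L-type gene, was at 1.70 FPKM with etoposide against 5.00 in its control, a ratio of 0.340 (interval 0.282 to 0.407). Cacna1e (chromosome 1, 156239649 to 156573050), the R-type gene, was at 2.25 against 6.45 FPKM, a ratio of 0.348 (0.307 to 0.393). Cacna1b, the N-type gene, had a ratio of 0.431 (0.392 to 0.474). Its interval overlaps the upper ends of those of Cacna1e and Cacna1c. Cacna1a (chromosome 8, 86939263 to 87164148), the P/Q-type gene, was at 3.34 FPKM with etoposide against 6.92 in its control, a ratio of 0.484 (0.422 to 0.552). Cacna1d, an L-type gene whose channels open at more negative voltages, had a ratio of 0.482 (0.383 to 0.610). The 2 L-type genes thus stood at percentiles 4.2 (Cacna1c) and 25.4 (Cacna1d) of all genes compared, on a scale that compresses the low Cacna1d more. The counting intervals of their ratios overlap.

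The T-type genes were spread most widely. Cacna1i (chromosome 15, 80117668 to 80228722) was at 1.13 FPKM with etoposide against 3.70 in its control, a ratio of 0.305 (interval 0.249 to 0.370). Cacna1g (chromosome 11, 94269705 to 94335512) was at 1.25 against 2.44 FPKM, a ratio of 0.514 (0.412 to 0.636). Cacna1h (chromosome 17, 25507498 to 25570728) was at 4.27 against 5.69 FPKM, a ratio of 0.751 (0.663 to 0.851). The 3 intervals do not overlap, and that of Cacna1h holds the median ratio of all genes. Relative to that median, Cacna1h was thus near all genes and Cacna1i, after median scaling, at a ratio of 0.400.

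**Figure D2:**
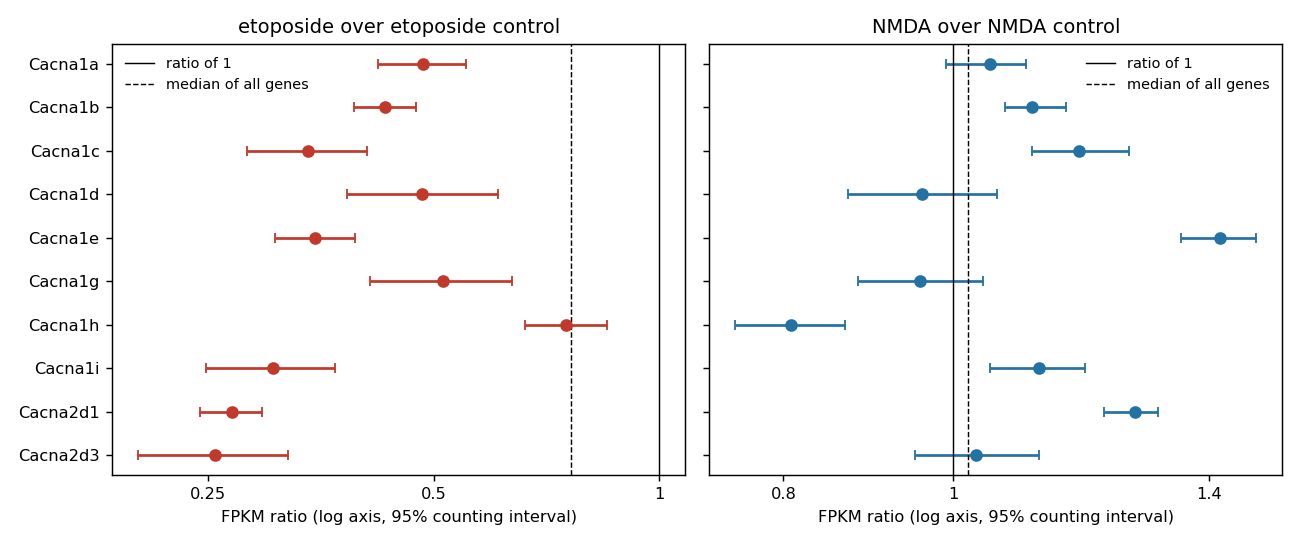
FPKM ratio of treated over control library on a log axis, with points for the 10 genes and bars for the 95% counting interval. With etoposide 9 of the intervals lie below the median of all genes (dashed, 0.762) and that of Cacna1h spans it, while with NMDA Cacna1e and Cacna2d1 lie highest and Cacna1h lowest.

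The authors' deposited table lists 680 genes as lower with etoposide and 12 as higher. Of the 10 genes 5 appear in the authors' deposited table, all as lower, where 6.28% of the genes compared are listed as lower. The table's own values correspond to 3.91-fold lower for Cacna2d3, 3.72-fold for Cacna2d1, 3.28-fold for Cacna1i, 2.94-fold for Cacna1c and 2.87-fold for Cacna1e in the authors' deposited table. The sources used here do not give the rule by which genes were listed.

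Most of the 10 genes are very long, from 63.2 kb (Cacna1h) to 816.9 kb (Cacna2d3), and 8 of them span over 100 kb. Long genes as a class were lower in the etoposide library. Over the 1720 genes compared that span over 100 kb, the median log2 fold was -0.71 and 24.4% were at least 2-fold lower, against 6 of the 8 calcium channel genes of that length. Of these long genes 23.6% are listed as lower in the authors' deposited table, and 5 of the 8 channel genes are. Across the 10 genes, which share both libraries, the rank correlation (Spearman's rho) between log2 fold and span was -0.67, a description without a test. Members of like length still differed. In the 295 genes over 400 kb the log2 fold had a median of -0.80 and quartiles of -1.08 and -0.50. Cacna2d1 at -1.74, Cacna2d3 at -1.58 and Cacna1c at -1.15 lay below the lower quartile. Cacna1d at -0.61 lay between the quartiles, on a scale that compresses this low gene more. With a pseudocount of 0.1 Cacna1d was at -0.98 and Cacna1c at -1.50, and the counting intervals of their ratios overlap. In the 987 genes of 100 to 200 kb the lower quartile was -0.92, and Cacna1i at -1.14 and Cacna1b at -1.07 lay below it. The genes of 50 to 100 kb had a median of -0.47, with Cacna1g at -0.61 below it and Cacna1h at -0.34 above it.

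**Figure D3:**
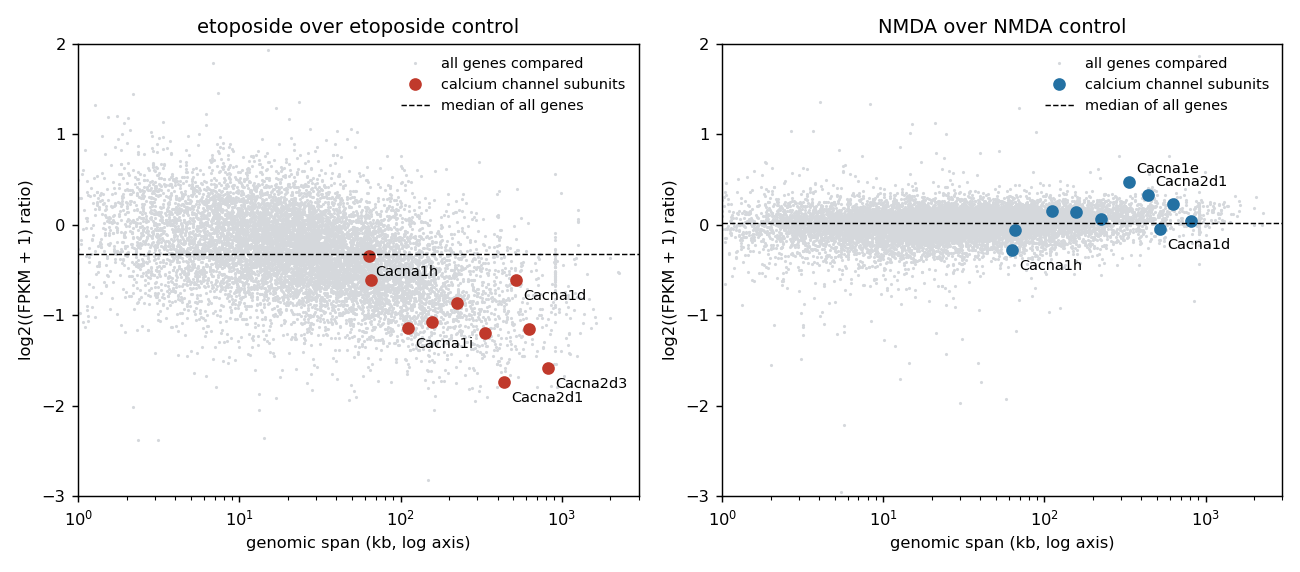
Log2 ratio of FPKM + 1 against genomic span on a log axis, with grey points for all genes compared, coloured points for the 10 calcium channel genes and a dashed line for the median of all genes. In the etoposide panel Cacna2d1 and Cacna2d3 lie lowest of the 10 and Cacna1h lies on the median, while in the NMDA panel all 10 lie within 0.47 of 0; 143 and 221 genes fall outside the axes of the panels.

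The make-up of the α1 transcripts does not depend on the FPKM scale of a library. The summed FPKM of the 8 α1 genes was 20.0 with etoposide against 44.0 in its control. Cacna1h made up 21.4% of that sum with etoposide against 12.9% in its control. Cacna1i made up 5.63% against 8.40%, Cacna1e 11.2% against 14.7% and Cacna1c 8.50% against 11.4%. The shares of Cacna1b, at 25.4% against 26.8%, and of Cacna1a, at 16.7% against 15.7%, were close. Together the T-type genes held 33.3% of the α1 sum with etoposide against 26.9% in its control. With the 4 α2δ genes summed in the same way, α2δ stood at 0.451 of the α1 sum with etoposide against 0.746 in its control.

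In the NMDA pair Cacna1e held 15.6% of the α1 sum with NMDA against 12.1% in its control, and Cacna1h held 8.05% against 10.9%. The T-type genes held 25.2% against 28.8%. The α2δ sum stood at 0.622 of the α1 sum with NMDA against 0.574 in its control. The controls differed from each other as well, with Cacna1h at 10.9% in the NMDA control against 12.9% in the etoposide control.

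**Figure D4:**
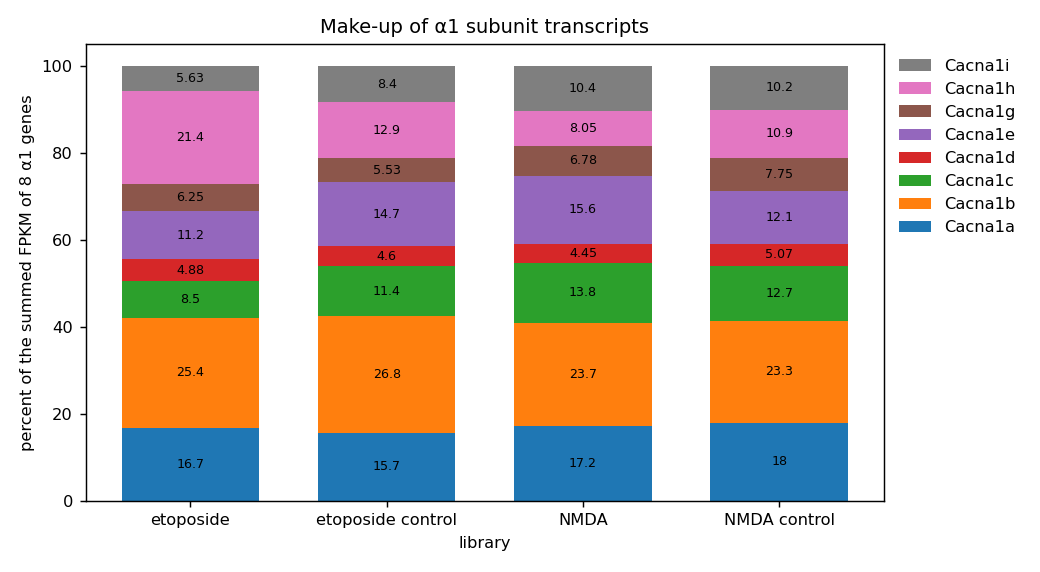
Share of each α1 gene in the summed FPKM of the 8 α1 genes, as a percentage stacked to 100 for each library. Cacna1h takes 21.4% with etoposide against 12.9% in its control, and Cacna1e takes 15.6% with NMDA against 12.1% in its control.

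The NMDA comparison asks what receptor activation does to transcripts soon afterwards. No calcium channel gene of the 10 was 2-fold higher or lower with NMDA, where 0.438% of the 13028 genes compared were at least 2-fold higher and 0.729% lower. Cacna1e was at 17.4 FPKM with NMDA against 12.3 in its control, a ratio of 1.42 (interval 1.35 to 1.49, from about 3918 and 2939 fragments), and stood at percentile 99.1 of all genes compared. It is the single member in the authors' deposited table for NMDA, which lists 25 genes as higher and 38 as lower and holds 0.192% of the genes compared as higher. Cacna2d1 was next, with a ratio of 1.27 (1.22 to 1.31) at percentile 98.0. Against the etoposide control with median scaling both turned, with log2 folds of -0.14 for Cacna1e and -0.49 for Cacna2d1. Cacna1c was at 15.3 FPKM with NMDA against 13.0 in its control, a ratio of 1.18 (1.11 to 1.26). The only member whose interval lay below 1 was Cacna1h, at 8.96 against 11.1 FPKM, a ratio of 0.808 (0.751 to 0.868) at percentile 5.2.

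The remaining genes differed little in the NMDA pair. Cacna1i, at 11.6 against 10.4 FPKM, and Cacna1b had ratios of 1.12 (interval 1.05 to 1.19) and 1.11 (1.07 to 1.16). The intervals of Cacna1a (ratio 1.05), Cacna2d3 (1.03), Cacna1d (0.960) and Cacna1g (0.957) all held 1. Above 0 on the log2 scale were 7 of the 10, where 57.2% of all genes and 69.7% of genes over 100 kb were above 0, and the median log2 fold was 0.10 for the 10 genes, 0.02 for all genes and 0.07 for the long genes. Against the etoposide control with median scaling, 3 of the 10 were above 0 and the median was -0.17, so the direction turned with the control.

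Promoter sequence from the RefSeq table of build GRCm38.p6 was found for 7 of the 10 genes, with 10 windows in all since Cacna1c has 3 and Cacna1d has 2. No entry was matched for Cacna1a, Cacna1g and Cacna1h. Shown are the 250 bases before the start of Cacna1e and Cacna2d1, the members with the highest NMDA ratios, of Cacna2d3, which with Cacna2d1 had the lowest etoposide ratios, and of Cacna1b, the most abundant α1 gene. Letters are 5′ to 3′ on the gene's strand, and capitals mark GGGCGG (the GC box), TGACG (part of the site for cAMP-response factors) and GCGNGGGCG (the motif of Egr factors) on either strand, which can overlap each other. The windows are chr1:154725921-154726170 on the minus strand for Cacna1e, chr5:15934441-15934690 on the plus strand for Cacna2d1, chr14:29721865-29722114 on the minus strand for Cacna2d3 and chr2:24763153-24763402 on the minus strand for Cacna1b.
Cacna1e: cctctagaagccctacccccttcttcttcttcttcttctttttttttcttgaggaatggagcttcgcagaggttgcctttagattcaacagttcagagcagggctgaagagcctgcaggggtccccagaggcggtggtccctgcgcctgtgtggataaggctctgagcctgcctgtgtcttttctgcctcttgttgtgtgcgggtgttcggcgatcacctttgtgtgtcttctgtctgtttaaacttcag
Cacna2d1: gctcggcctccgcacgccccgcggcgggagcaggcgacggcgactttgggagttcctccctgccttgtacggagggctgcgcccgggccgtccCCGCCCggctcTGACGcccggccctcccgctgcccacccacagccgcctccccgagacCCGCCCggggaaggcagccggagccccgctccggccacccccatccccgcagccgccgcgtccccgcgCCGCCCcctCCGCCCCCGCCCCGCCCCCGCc
Cacna2d3: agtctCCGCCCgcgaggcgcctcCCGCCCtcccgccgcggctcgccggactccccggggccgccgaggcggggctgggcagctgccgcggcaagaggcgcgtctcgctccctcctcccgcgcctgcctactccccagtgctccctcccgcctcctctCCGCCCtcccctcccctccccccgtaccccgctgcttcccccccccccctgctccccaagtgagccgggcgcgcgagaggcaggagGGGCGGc
Cacna1b: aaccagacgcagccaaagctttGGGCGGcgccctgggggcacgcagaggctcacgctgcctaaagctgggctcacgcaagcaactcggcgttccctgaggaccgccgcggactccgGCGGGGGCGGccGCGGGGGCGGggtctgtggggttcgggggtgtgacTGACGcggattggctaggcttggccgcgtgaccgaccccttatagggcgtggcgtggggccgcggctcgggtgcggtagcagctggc

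The 2 genes with the highest NMDA ratios thus had unlike promoters. The Cacna1e window had 52.0% G and C, 6 CG steps and no match to any of these motifs, while that of Cacna2d1 had 82.4% G and C, 36 CG steps and 6 GC boxes, with overlapping matches counted. Over all 32851 windows of the table the median was 52.4% G and C and 6 CG steps. Cacna2d3, with 80.0% G and C and 4 GC boxes, and Cacna1b, with 72.0% and 3 GC boxes, were also rich in G and C. Of the 10 windows 5 held GGGCGG, as did 32.7% of all windows. The partial site TGACG was in 4 of the 10 windows and 17.8% of all, and GCGNGGGCG in 3 of the 10 and 4.70% of all. The full cAMP-response element TGACGTCA and the AP-1 motif TGANTCA were in 0 of the 10, against 1.55% and 6.75% of all windows. A match is a run of letters and not a shown binding site, and no match says only that these letters are not in this window.

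The controls also lay apart from each other. Relative to the median log2 fold of all genes, the members' median in the NMDA control over the etoposide control was -0.31, and 9 of the 10 lay below the median of all genes, where 50.0% lie by construction. With no filter on low values the relative median was 0.20 and 1 of the 10 lay below. With the filter, and relative to the median of all genes, Cacna2d1 was at -0.61, Cacna1e at -0.49, Cacna1h at -0.47 and Cacna1g at 0.05. For Cacna2d1, Cacna1e and Cacna1h this distance between the controls was larger in size than their log2 folds with NMDA, which were 0.33, 0.47 and -0.28. Markers of other cells also differed between the controls. The summed FPKM of 8 astrocyte markers was 945 in the NMDA control against 103 in the etoposide control, and that of 9 oligodendrocyte lineage markers 217 against 22.4. The part of these cells in the levels of the channel genes was not tested.

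Marker lists differed in the etoposide pair too, and in bulk RNA fewer cells of a type and less RNA per cell cannot be told apart. In this pair 76.7% of all genes compared were lower with etoposide, and the median FPKM ratio of all genes was 0.762. The summed FPKM was 347 with etoposide against 577 in its control for 9 pan-neuronal markers, all of which were lower. For 7 excitatory neuron markers, all lower, it was 54.5 against 104. For 10 inhibitory neuron markers it was 134 against 108, with 7 lower, near the share of all genes. Among them the interneuron peptide Sst was at 87.9 against 34.6 FPKM. Against the NMDA control with median scaling the neuronal markers Snap25 (log2 fold 0.63), Neurod6 (0.08), Gad1 (0.74) and Sst (1.25) were higher with etoposide. Under the same setting the neuronal markers Tubb3 (-0.59), Syt1 (-0.50) and Slc17a7 (-1.47) were lower with etoposide. With etoposide the summed FPKM was 54.3 against 103 for 8 astrocyte markers and 6.37 against 22.4 for 9 oligodendrocyte lineage markers. For 10 markers of progenitors and dividing cells it was 32.1 against 90.6, and for 9 vascular and smooth muscle markers 1.59 against 11.0. Of those that passed the FPKM filter in these lists, all 7, 3, 4 and 2 were lower. Sox10 was listed at 0 with etoposide, Kdr with etoposide, and Cldn5 in both libraries. Microglial markers were near 0, with sums of 0.350 and 0.386 FPKM and C1qb listed at 0 in both libraries. In the NMDA pair the sums were 1590 against 1490 for pan-neuronal, 310 against 301 for excitatory, 306 against 301 for inhibitory, 912 against 945 for astrocyte, 210 against 217 for oligodendrocyte lineage, 382 against 435 for progenitor, 38.7 against 46.5 for vascular and 3.70 against 4.59 for microglial markers. The part of any of these in the channel genes' differences was not tested.

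The β subunits, which bind the α1 subunits of high-threshold channels from the inside, were all lower with etoposide, where 76.7% of all genes were. They were also lower under median scaling and against the NMDA control. Their ratios ran from 0.475 to 0.592, and none is in the authors' deposited table. Cacnb3 was at 6.78 FPKM with etoposide against 11.4 in its control, a ratio of 0.592. Cacnb1 was at 5.08 against 10.0, a ratio of 0.507, Cacnb4 at 2.44 against 5.13, a ratio of 0.475, and Cacnb2 at 0.921 against 1.56, a ratio of 0.591. The β sum stood at 0.761 of the α1 sum with etoposide against 0.640 in its control, and at 0.848 with NMDA against 0.864 in its control. With NMDA, Cacnb4 had a ratio of 1.14, Cacnb1 of 1.12, Cacnb2 of 1.10 and Cacnb3 of 0.999, but Cacnb2 and Cacnb4 were below 0 on the log2 scale, at -0.06 and -0.04, against the etoposide control with median scaling.

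The γ family mostly holds proteins that bind AMPA-type glutamate receptors. Cacng3, one of these, was at 1.24 FPKM with etoposide against 4.61 in its control, and is the only gene of the other channel subunits in the authors' deposited table, at 3.72-fold lower. Cacng8 was at 4.06 against 11.2 FPKM and Cacng4 at 4.06 against 10.5, also at least 2-fold lower on the log2(FPKM + 1) scale. Cacng7 was at 7.51 against 12.8, Cacng2 at 2.38 against 4.09, Cacng5 at 0.561 against 1.79 and the α2δ gene Cacna2d2 at 0.658 against 1.36 FPKM. Without the pseudocount Cacng5 was 3.18-fold lower (interval 2 to 5.1) and Cacna2d2 2.07-fold lower (1.46 to 3.02). With it both fell short of 2-fold. Of these named genes Cacna2d2 alone was higher with etoposide (log2 fold 0.15) against the NMDA control with median scaling. Of the 16 other subunits, 11 passed the FPKM filter in the etoposide pair, with a median log2 fold of -0.83. On the log2(FPKM + 1) scale 3 were at least 2-fold lower, where 7.36% of all genes were. None was 2-fold higher, where 0.477% of all genes were. After median scaling 1 of the 11 was at least 2-fold lower (Cacng3), where 2.26% of all genes were. With NMDA 12 passed and 9 were above 0, where 57.2% of all genes were, with a median of 0.09. There Cacng8 had the highest ratio, 1.23, at 55.3 FPKM with NMDA against 44.9 in its control, and Cacng5 the lowest, 0.892, at 5.16 against 5.78. Against the etoposide control with median scaling Cacng7 turned above 0 with NMDA, at a log2 fold of 0.52, and Cacng2 (-0.09) and Cacna2d2 (-0.43) turned below 0. Cacng6 was at 1.14 FPKM with NMDA against 0.954 in its control, and Cacng7 at 56.6 against 61.2. Cacng4 was at 61.7 against 54.7, Cacng2 at 11.4 against 10.8, Cacng3 at 18.1 against 17.8 and Cacna2d2 at 2.28 against 2.26 FPKM. The muscle gene Cacna1s, the retinal genes Cacna1f and Cacna2d4, and Cacng1 were under 1 FPKM in all 4 libraries.

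**Figure D5:**
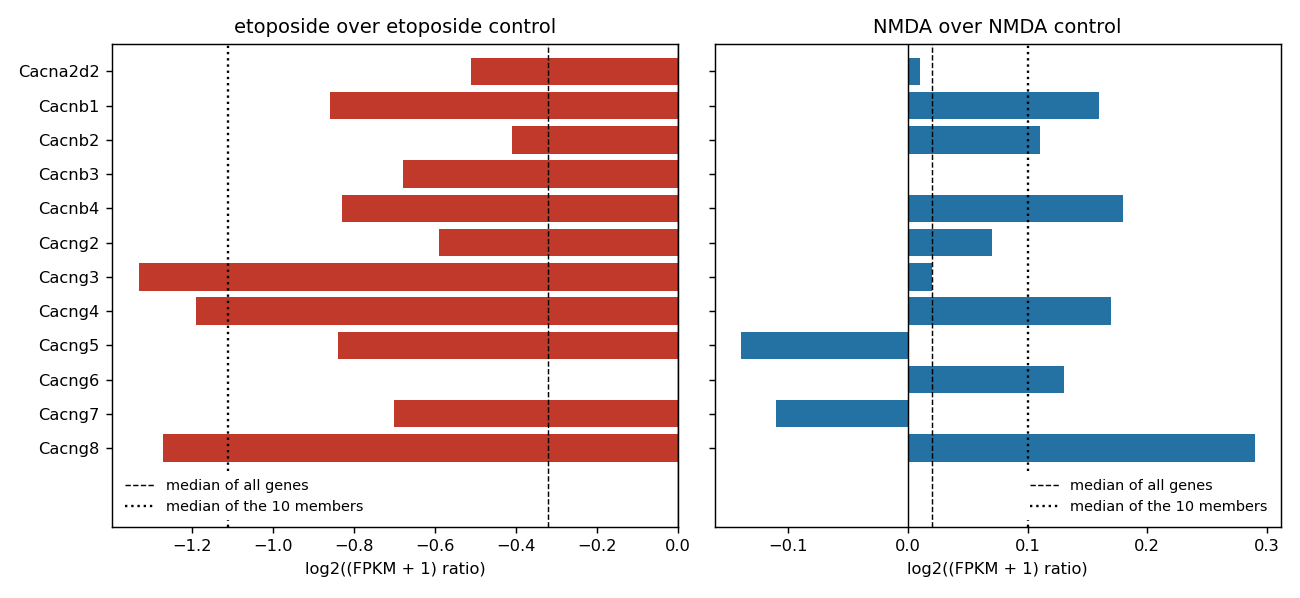
Log2 ratio of FPKM + 1 for the other channel subunits that passed the FPKM filter in either pair, with 1 library per group, a dashed line for the median of all genes and a dotted line for the median of the 10 members. Every etoposide bar lies below the dashed line at -0.32 and only Cacng3, Cacng4 and Cacng8 reach past the dotted line at -1.11, while NMDA values run between -0.14 and 0.29; Cacng6 has no etoposide bar because it did not pass the filter there.

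Genes of proteins that bind or regulate the channels were lower with etoposide as well, although 2 of the 18 compared were above the median of all genes. Of 20 listed partners these 18 passed the filter, all 18 were below 0 where 76.7% of all genes were, 4 were at least 2-fold lower where 7.36% of all genes were, and the median log2 fold was -0.77. Syt1, the calcium sensor of vesicle release, was at 23.9 FPKM with etoposide against 62.2 in its control. Rimbp2, which ties release sites to calcium channels, was at 2.45 against 6.27 FPKM and is the partner found in the authors' deposited table. Apba1, an adaptor, was at 9.15 against 22.8, Erc1, an active zone protein, at 3.76 against 8.70, the scaffold Cask at 6.37 against 13.3 and the calcium sensor Ncs1 at 16.3 against 31.6 FPKM. With NMDA 19 of 20 partners were above 0, where 57.2% of all genes were, with a median of 0.09, and the 6 named here had ratios from 1.06 (Erc1) to 1.13 (Apba1 and Cask). Against the etoposide control with median scaling, Apba1 alone of these 6 stayed above 0 with NMDA.

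Genes of calcium stores and extrusion, which clear calcium from the cytosol or release and refill its stores, were mostly lower with etoposide. The 6 named here were so against either control with and without median scaling. They were picked by size of fold in these same libraries, so this cannot speak for the list. Its other genes were not followed under these settings. Of 21 listed genes 17 passed, with a median log2 fold of -1.06. Below 0 were 16 and above it 1, where 76.7% of all genes were below 0. At least 2-fold lower were 10, where 7.36% of all genes were. In the authors' deposited table are 8, where 6.28% of the genes compared are listed as lower. The plasma membrane calcium pump genes Atp2b4, at 2.46 FPKM with etoposide against 10.8 in its control, and Atp2b2, at 5.01 against 17.8, had ratios of 0.228 and 0.282. A further pump gene, Atp2b1, was at 12.4 against 32.8 FPKM. The sodium-calcium exchanger gene Slc8a2 was at 4.11 against 14.2, the store release channel gene Itpr1 at 1.23 against 4.65 and the store sensor gene Stim1 at 2.49 against 7.59 FPKM. With NMDA 14 of 18 were above 0, where 57.2% of all genes were, with a median of 0.13, and Atp2b2 had a ratio of 1.20, at 51.2 FPKM with NMDA against 42.6 in its control. Atp2b1 was at 71.5 against 60.7 and Atp2b4 at 43.7 against 38.6. Against the etoposide control with median scaling Atp2b1 (-0.45), Atp2b2 (-0.06), Itpr1 (-0.31) and Stim1 (-0.37) were below 0 with NMDA.

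By Euclidean distance between profiles of log2(FPKM + 1) over the 4 libraries, each centred on its own mean, the genes most like the median profile of the 10 were Odz3, B4galt5, Camsap1l1, Acvr1b and Robo1, of 9524 genes searched. Their distances ran from 0.019 (Odz3) to 0.0404 (Robo1). Among the 10 channel genes Cacna1b was nearest to that profile at 0.124 and Cacna1h farthest at 0.995. Odz3 was at 4.38 FPKM with etoposide against 10.2 in its control, and at 25.5 with NMDA against 22.6 in its control. Robo1 was at 1.84 against 5.12 FPKM in the etoposide pair and at 12.8 against 11.7 in the NMDA pair.

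Exons of Cacna1h overlap those of Tpsg1 on the opposite strand by up to 158 bases, those of Cacna1d overlap Chdh by up to 518 bases, and those of Cacna1a overlap Gm16183 by up to 227 bases, and the sources used here do not say whether counting used strand. Tpsg1 was listed at 0 in both libraries of the etoposide pair, and at 0.137 FPKM with NMDA against 0.316 in its control. Chdh was at 0.0113 with etoposide against 0.0193 FPKM in its control, and at 0.0977 with NMDA against 0.186 in its control.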

How the data were processed

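RNA-seq came from 1 library per group. Per the labels' protocols a total RNA kit and paired-end reads were used, and the tools named in the submitters' processing notes include Cuffdiff, TopHat, Cufflinks 2.0.0 and Bowtie, with mm9 as a build, but not what each did. FPKM was computed by the authors and taken here without change. The 692 etoposide and 63 NMDA genes of the authors' deposited comparison tables have FPKM equal to the library tables within a relative tolerance of 0.0001.

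Groups follow the sample titles. Log2 fold was log2((treated + 1)/(control + 1)) for genes that reached 1 FPKM in either library of a pair, and calls used 2-fold. Transcript lengths and exons came from GENCODE M1 of the same build (21488 genes matched by symbol), and 1 was added to locus starts, which count from 0. Fragment numbers are FPKM times the longest coding transcript over the FPKM of 1 fragment on 1 kb, read from single-exon genes of at least 800 bases, and are approximate. Python 3.11.15, pandas 2.3.3 and scipy 1.17.1 were used. The fold calculation was run on simulated data with large changes, no low genes and no shift in scale between libraries. That run does not speak to smaller folds, low genes or libraries on different scales. Named genes are the members, the other subunits at FPKM of at least 1, up to 6 genes by size of fold per calcium list, the top markers and the 5 nearest profiles, though most markers are given as sums. The members and lists were chosen with earlier results of these data known. Other pseudocounts, filters, median scaling and the other pair's control were tried as alternatives. Chromatin samples were not analysed here.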

Additional observations from a re-analysis of the deposited data

How the results depend on the processing

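No paired analysis was possible because each group has 1 library and the labels give no replicate numbers, and for the same reason no replicate could be left out. The number of members at least 2-fold lower with etoposide (6 as reported) was 5 to 7 with other pseudocounts and filters, 2 with median scaling, 10 against the NMDA control as deposited and 1 against it with median scaling. The members' median log2 fold with etoposide (-1.11) was -1.34 with a pseudocount of 0.1, -0.82 with median scaling, -2.09 against the other control and -0.50 against it with median scaling. With NMDA the median (0.10) was 1.20 against the other control and -0.17 against it with median scaling, where 3 members in place of 7 were above 0. Between the controls the median (1.01) was 1.19 with a pseudocount of 0.1 and -0.29 with median scaling. Median scaling turned 9 of the 10 members below 0 between the controls, namely Cacna2d1 (-0.78), Cacna1e (-0.53), Cacna1b (-0.50), Cacna1h (-0.49), Cacna2d3 (-0.43), Cacna1c (-0.15), Cacna1d (-0.14), Cacna1a (-0.13) and Cacna1i (-0.06). Sst with etoposide was at -0.73 against the other control as deposited. Over all genes the median log2 fold between the controls was 1.32 as deposited and 0.07 with median scaling. The causes of these turns and of the other moves were not tested. In the NMDA pair no member moved beyond its counting interval with another pseudocount, filter or median scaling. Depth limits Cacna1d, Cacna2d3, Cacna1g and Cacna1i most, at about 94 to 130 fragments in the etoposide library.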

Other observations

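Some channel genes lie near each other, though genes between them were not looked for. Cacna2d3 and Cacna1d are 287.1 kb apart on chromosome 14 (mm9), and their etoposide ratios were 0.256 and 0.482, with counting intervals that do not overlap. Cacna1c, at 1.70 FPKM with etoposide against 5.00 in its control, lies 14.9 kb from Cacna2d4 on chromosome 6. Cacna2d4 was at 0.0267 against 0.0793 FPKM and did not pass the FPKM filter. Its values rest on about 2 and 6 fragments, and the interval of its ratio, 0.0389 to 2.21, gives no direction. Cacng7, Cacng8 and Cacng6 lie in a row on chromosome 7, and with NMDA Cacng8 had a ratio of 1.23 and Cacng7 of 0.924, but against the etoposide control with median scaling both were above 0 on the log2 scale, at 0.67 and 0.52.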
